A study of Mus musculus with 18 samples.

Results

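The 10 genes described here, H19, Igf2, Igf2r, Cdkn1c, Peg3, Mest, Plagl1, Grb10, Ndn and Impact, are imprinted genes that lie outside the Dlk1-Dio3 and Peg10 clusters. They were taken by name from tables that list 24062 genes, and all 10 were found there. Of these, 8 passed the filter on low counts that left 12140 genes for testing, and Cdkn1c and Mest did not. The 18 samples are of NIH3T3, an established line of mouse embryonic fibroblasts. The TRIM21 line carries mouse TRIM21, a cytosolic antibody receptor with ubiquitin ligase activity, fused to the fluorescent protein mCherry, and the WT line is NIH3T3 without the fusion. Both were electroporated with PBS, with bovine serum albumin (BSA) or with an antibody (IgG) (7.5 µg of either protein; 1400 V, 20 ms, 2 pulses), and polyA RNA was sequenced from cells lysed 16 h later. Each of the 6 groups has 3 samples. The PBS groups carry no added protein but went through the same electroporation. How the fusion was introduced, what drives it and whether the line is 1 clone are not given in the sources used here, so the fusion and any other difference between the lines cannot be told apart.

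An imprinted gene is expressed mainly or wholly from the chromosome copy of 1 parent, under the control of a nearby region whose DNA methylation was set in egg or sperm. Many genes expressed from the father's copy promote fetal growth and many expressed from the mother's copy restrain it. Igf2 (insulin-like growth factor 2, paternal) and the long non-coding RNA H19 (maternal) are neighbours that share enhancers, and Igf2r (maternal in mouse) is the receptor that clears the IGF2 protein. The comparison between the lines asks whether lower RNA from imprinted genes was general among these 10 genes or local to some loci. A count of reads per gene does not separate the parental copies.

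The sequences that belong to the loci with a difference are shown first. H19 hosts the microRNA miR-675, whose mature arms both lie wholly inside annotated H19 exons, at chr7:142577112-142577133 (5p) and chr7:142577078-142577099 (3p) on the minus strand. Capitals mark the seed, bases 2 to 8, through which a microRNA pairs with its targets, and the sequences are RefSeq's, build GRCm38.p6.
miR-675-5p: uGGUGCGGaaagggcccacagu
miR-675-3p: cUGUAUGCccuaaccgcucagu
The seeds of the 2 arms differ. Mature microRNAs carry no polyA tail and were not measured by these libraries, and the gene tables list Mir675 at 0 counts over all 18 samples, so the values below are those of the host RNA.

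RefSeq gives 4 starts for Igf2. The 250 bases upstream of the most downstream of these starts, chr7:142657497-142657746 on the minus strand (GRCm38.p6), contain no annotated Igf2 exon. Capitals mark each match to GGGCGG, the letters of a GC box, to which SP-family factors can bind.
Igf2 upstream: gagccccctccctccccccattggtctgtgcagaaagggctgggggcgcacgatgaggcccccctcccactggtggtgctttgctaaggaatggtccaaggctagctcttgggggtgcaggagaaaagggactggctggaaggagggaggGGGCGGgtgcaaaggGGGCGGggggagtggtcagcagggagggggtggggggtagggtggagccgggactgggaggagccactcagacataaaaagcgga
It holds 2 such matches and 6 CpG sites. Of 32851 mouse promoter windows of this length, 32.7% held GGGCGG on either strand, and the median window had 6 CpG sites. Neither TATAAA, found in 12.4% of the windows, nor GGGGCCCC, the letters of a PLAGL1 site, found in 0.889%, is in this window. These are matches of letters and say nothing about binding in these cells. The motifs were chosen after the count tables had been seen.

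The samples held 19509017 to 29766433 reads counted to genes, with 20314542 to 29766433 in the TRIM21 line and 19509017 to 26521824 in the WT line. Trim21 itself had 19900 to 32225 counts in the TRIM21 line and 142 to 223 in the WT line, which fits the labels. All 8 fibroblast markers were detected, and their summed level was 14778 to 24787 CPM (counts per 1000000 reads) in the TRIM21 line and 21227 to 28846 CPM in the WT line, with Thy1 lower in the TRIM21 line by the test used below. Epithelial markers summed to at most 0.567 CPM, and Epcam, Krt5 and Krt19 had at most 3 counts in every sample; Kdr, Itgam, Myod1, Myog, Ckm, Adipoq, Plin1, Rbfox3 and Gfap were at that limit too. Other markers of these types were detected: in the TRIM21 and WT lines leukocyte markers summed to 4.84 to 8.7 and 5.21 to 7.49 CPM, endothelial markers to 0.536 to 2.45 and 0.335 to 1.24 CPM, and neural markers to 11.5 to 20.4 and 6.13 to 13.6 CPM. The neural marker Tubb3 was higher in the TRIM21 line by 0.65 on the log2 scale. The part of these marker differences in the results below was not tested. In bulk RNA, fewer cells expressing a gene and less RNA of it per cell cannot be told apart. Sample titles carry the number 10, 11 or 14, each once per group. What a number stands for is not given, and the p-values therefore measure the spread between these samples, which may be technical in part.

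Between the lines, 3 of the 8 tested genes were lower in the TRIM21 line and none was higher. These were H19, by 8.82-fold, Igf2, by 1.93-fold, and Ndn, by 1.74-fold. Igf2r, Peg3, Plagl1, Grb10 and Impact did not pass the test. The test was edgeR's quasi-likelihood test over all 18 samples with Benjamini-Hochberg adjustment over all 12140 genes and a threshold of 0.05, averaged over the 3 treatments. By the same test 6.18% of all genes tested differed, 4.79% lower and 1.39% higher in the TRIM21 line. The 8 genes had a median log2 fold change (TRIM21 over WT) of -0.14, and all genes tested had one of 0.01. Since the list was drawn up with earlier results of these data known, the count is a description of these 8 genes.

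**Figure D1:**
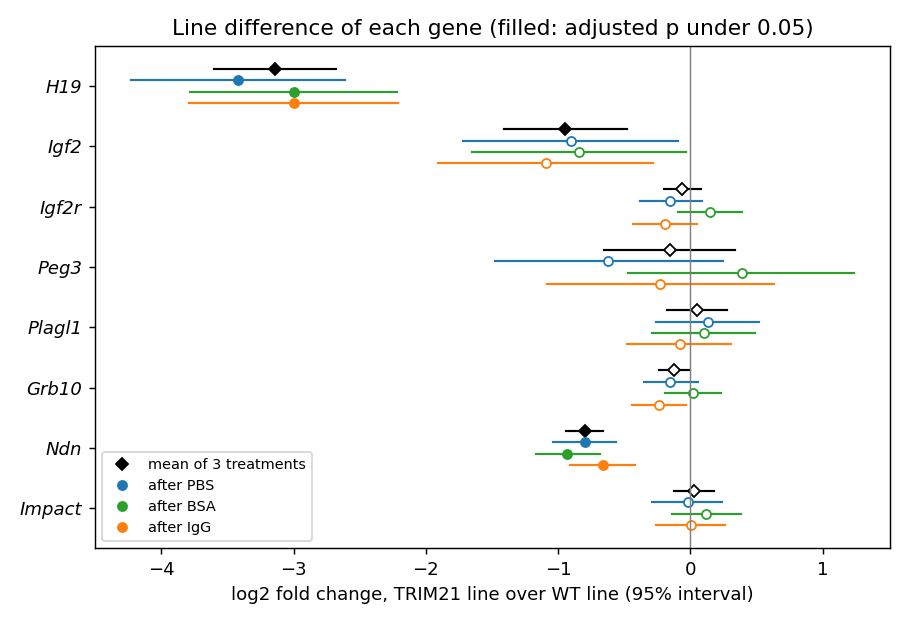
Log2 fold change of each of the 8 tested genes, TRIM21 line over WT line, with 95% intervals, averaged over treatments (diamonds, n = 9 samples per line) and after each treatment (circles, n = 3 per group). Filled symbols passed an adjusted p of 0.05. H19 lies near -3, Igf2 and Ndn near -1, and the averaged intervals of Igf2r, Peg3, Plagl1 and Impact span 0.

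The genes differed widely in level, which is compared between genes as CPM per kb of annotated exon. In the WT line the order of mean levels was Grb10 (125 CPM per kb), Igf2 (56.2), Igf2r (33.1), Impact (28.7), H19 (9.46), Ndn (8.31), Plagl1 (2.88) and Peg3 (2.07). In the TRIM21 line it was Grb10 (115 CPM per kb), Igf2r (31.7), Impact (29.4), Igf2 (29.1), Ndn (4.77), Plagl1 (2.98), Peg3 (1.87) and H19 (1.07). H19 thus stood above Ndn, Plagl1 and Peg3 in the WT line and last in the TRIM21 line, and Igf2 moved from the second place to a level within the spread of Igf2r and Impact. In the WT line the sample ranges of Igf2r (27.2 to 38.1 CPM per kb) and Impact (24.6 to 34.1) overlapped, as did those of H19 (6.35 to 13.5) and Ndn (6.8 to 9.72). The ranges of Plagl1 (2.27 to 3.45) and Peg3 (0.997 to 3.25) overlapped as well.

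**Figure D2:**
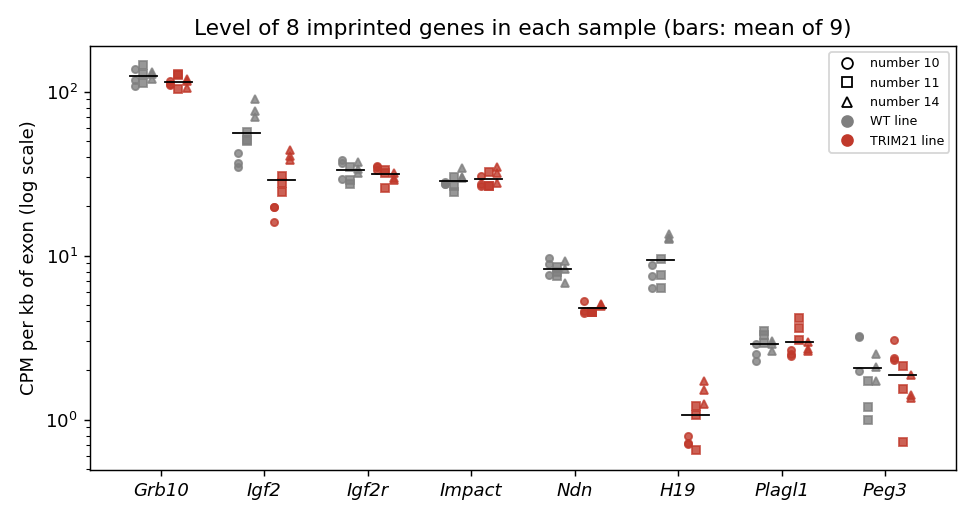
Level of the 8 tested genes in each of the 18 samples, in CPM per kb of exon on a log axis, with the mean of the 9 samples of each line as a bar. Grb10 is the highest in both lines, and H19 drops from a mean of 9.46 in the WT line to 1.07 in the TRIM21 line.

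H19 (ENSMUSG00000000031.16, chr7:142575529-142578143, minus strand, mm10) is a long non-coding RNA made from the maternal copy, abundant in fetal tissue and mostly silent after birth. In the TRIM21 line its levels in samples 10, 11 and 14 were 1.95, 1.6 and 3.04 CPM after PBS, 1.75, 3 and 3.73 CPM after BSA and 1.78, 2.62 and 4.22 CPM after IgG. In the WT line they were 15.7, 23.4 and 33.3 CPM after PBS, 21.4, 15.6 and 31.2 CPM after BSA and 18.5, 18.8 and 31.7 CPM after IgG. Every WT sample was above every TRIM21 sample, and number 14 was the highest in all 6 groups. The means were 2.63 ± 0.938 CPM (SD, n = 9) in the TRIM21 line and 23.3 ± 7.04 CPM (SD, n = 9) in the WT line, from 32 to 114 counts and 339 to 828 counts per sample. The log2 fold change was -3.14 ± 0.218 (SE; 95% interval -3.60 to -2.68), with a Benjamini-Hochberg adjusted p of 2.09e-08 by edgeR's quasi-likelihood test. H19 was lower in 9 of 9 pairs of samples with the same number and treatment, which follows from the separation of the lines. A two-sided exact permutation test of mean log2(CPM + 0.5) over all 48620 assignments gave p = 4.11e-05, the smallest it can give. miR-675, printed above, is processed from this RNA.

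Igf2 (ENSMUSG00000048583.16, chr7:142650766-142666816, minus strand) encodes a growth factor of the fetus that signals through the IGF1 receptor and an isoform of the insulin receptor. In the TRIM21 line its levels in samples 10, 11 and 14 were 113, 140 and 221 CPM after PBS, 91.3, 174 and 254 CPM after BSA and 113, 159 and 234 CPM after IgG. In the WT line they were 198, 289 and 399 CPM after PBS, 209, 288 and 434 CPM after BSA and 240, 323 and 514 CPM after IgG. The lines overlapped over all samples, since the number 14 samples of the TRIM21 line reached the number 10 samples of the WT line. Within number 10 the TRIM21 samples spanned 91.3 to 113 CPM and the WT samples 198 to 240 CPM. Within number 11 the spans were 140 to 174 CPM and 288 to 323 CPM, and within number 14 they were 221 to 254 CPM and 399 to 514 CPM. The lines thus did not overlap within any number. The averaged log2 fold change was -0.95 ± 0.223 (SE; 95% interval -1.41 to -0.48), lower in 9 of 9 pairs, with an adjusted p of 0.015 by edgeR's quasi-likelihood test with Benjamini-Hochberg adjustment. The exact permutation test gave p = 0.000987, and p = 0.00025, its smallest, when lines were exchanged within a number. An antisense gene, Igf2os, overlaps Igf2 on the other strand, and the counting program's strand setting is not given, so reads from the overlap may not be told apart; Igf2os differed by -0.18 on the log2 scale (adjusted p = 0.543 by the same edgeR test).

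Ndn (ENSMUSG00000033585.5, chr7:62346569-62350262, plus strand) encodes necdin, a MAGE-family protein of neurons and mesenchymal cells that restrains cell proliferation. It is expressed from the paternal copy in the region that corresponds to the human Prader-Willi region. In the TRIM21 line its levels in samples 10, 11 and 14 were 16.4, 16.8 and 18.3 CPM after PBS, 17, 16.8 and 18.6 CPM after BSA and 19.6, 16.8 and 18.5 CPM after IgG. In the WT line they were 33.1, 31.5 and 25.1 CPM after PBS, 35.9, 29.4 and 34.2 CPM after BSA and 28.3, 27.9 and 30.7 CPM after IgG. The highest TRIM21 sample, at 19.6 CPM, was below the lowest WT sample, at 25.1 CPM. The log2 fold change was -0.80 ± 0.067 (SE; 95% interval -0.94 to -0.66), with an adjusted p of 2.82e-07 by edgeR's quasi-likelihood test with Benjamini-Hochberg adjustment and an exact permutation p of 4.11e-05. Ndn varied little within a line, with a coefficient of variation of 6.35% in the TRIM21 line and 11.1% in the WT line, against 35.1% and 33.4% for Igf2.

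**Figure D3:**
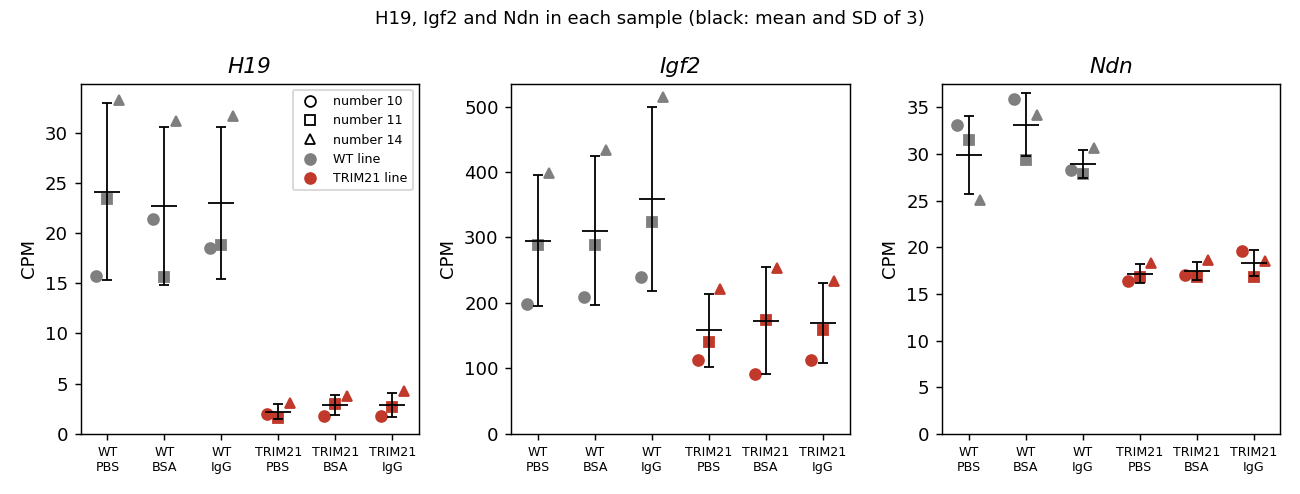
CPM of H19, Igf2 and Ndn in each sample by line and treatment; the marker shape gives the sample number, and black bars give the mean and SD of 3 samples. WT samples stand above all TRIM21 samples for H19 and Ndn, while for Igf2 the ranges 91.3 to 254 CPM (TRIM21) and 198 to 514 CPM (WT) overlap.

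The other 5 tested genes showed no difference between lines past the threshold, and their 95% intervals give the sizes the data leave possible. Igf2r (ENSMUSG00000023830.14, chr17:12682406-12769664), which carries IGF2 to the lysosome, had 241 to 328 CPM in the TRIM21 line and 254 to 355 CPM in the WT line. Its log2 fold change was -0.06 (95% interval -0.20 to 0.08; adjusted p = 0.621 by edgeR's quasi-likelihood test with Benjamini-Hochberg adjustment). The non-coding RNA Airn, which overlaps Igf2r on the other strand and silences the paternal Igf2r copy in many tissues, differed by -0.01. Grb10 (ENSMUSG00000020176.17, chr11:11930508-12038683), an adaptor that dampens insulin and IGF receptor signalling, had 943 to 1177 CPM in the TRIM21 line and 985 to 1316 CPM in the WT line. Its log2 fold change was -0.12 ± 0.057 (SE; 95% interval -0.24 to -0.0016), lower in 6 of 9 pairs. Its p by edgeR's quasi-likelihood test was 0.0474 before and 0.229 after Benjamini-Hochberg adjustment. Its exact permutation p was 0.0527.

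Plagl1 (ENSMUSG00000019817.18, chr10:13060504-13131694) encodes a zinc-finger transcription factor that slows the cell cycle and regulates other imprinted genes. Its level was 19.1 to 32.5 CPM in the TRIM21 line and 17.8 to 27 CPM in the WT line, and its log2 fold change was 0.05 (95% interval -0.18 to 0.28). Without the TRIM21 PBS sample 11, its highest sample, the value was -0.04. Impact (ENSMUSG00000024423.6, chromosome 18, from 12955852 to 12992950), an inhibitor of the stress kinase GCN2, had 136 to 179 CPM in the TRIM21 line and 126 to 175 CPM in the WT line. Its log2 fold change was 0.03 (95% interval -0.12 to 0.18), with adjusted p = 0.828 by edgeR. For both genes the samples of the 2 lines overlapped.

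Peg3 (ENSMUSG00000002265.16, chr7:6703892-6730431), a paternally expressed zinc-finger gene involved in growth and maternal care, had the widest spread of the 8. It ranged from 9.75 to 41.1 CPM in the TRIM21 line, a 4.21-fold range, and from 13.3 to 43.3 CPM in the WT line, a 3.26-fold range. The log2 fold change was -0.15 (95% interval -0.65 to 0.34; adjusted p = 0.747 by edgeR's quasi-likelihood test with Benjamini-Hochberg adjustment). By treatment it was -0.62 after PBS, 0.39 after BSA and -0.23 after IgG, none of which passed. Without the TRIM21 PBS sample 11, its lowest sample at 9.75 CPM, the value after PBS was -0.32. A fall of Peg3 as large as that of Ndn lies outside its averaged interval.

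Cdkn1c (ENSMUSG00000037664.13, chr7:143458339-143461050), a maternally expressed inhibitor of cyclin-dependent kinases, had 1 count in each of 2 samples of the TRIM21 line (BSA and IgG, number 14) and 0 in the other 16 samples. Mest (ENSMUSG00000051855.15, chr6:30723547-30748465), a paternally expressed gene of the hydrolase family, had 1 count in the WT PBS sample 14 and 0 in the other 17. A count of 0 allows up to 3 counts, or 0.0981 to 0.152 CPM in these samples, which covers counting error only. No difference between lines was detectable for either gene at this depth, and no fold is given. Some neighbours of both were expressed in both lines and did not pass. The non-coding RNA Kcnq1ot1, 161790 bases from Cdkn1c, differed by -0.05, and Copg2, which overlaps the end of Mest, by -0.13. Slc22a18, Kcnq1 and Phlda2, which lie closer to Cdkn1c, had 11, 6 and 1 counts over all 18 samples and were not tested.

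The line difference was then taken after each treatment, with 3 samples per group. H19 was lower by -3.42 after PBS, -3.00 after BSA and -3.00 after IgG on the log2 scale, with adjusted p of 4.18e-05, 0.000137 and 0.00015 by edgeR's quasi-likelihood test with Benjamini-Hochberg adjustment. Ndn was lower by -0.80, -0.93 and -0.66, with edgeR adjusted p of 0.000703, 0.000151 and 0.00428. Igf2 had values of -0.90, -0.84 and -1.09 with edgeR adjusted p of 0.214, 0.456 and 0.398, and did not pass after any single treatment in this fit, which has no block for the sample number. So 2 of the 8 genes passed after each treatment, where the shares over all genes tested were 1.71% after PBS, 0.848% after BSA and 0.774% after IgG. After BSA, samples with the same number deviated together, and with the number as a block Igf2 had -0.89 and an edgeR adjusted p of 3.99e-05. With only the PBS groups fitted, Ndn after PBS kept -0.80 but had an edgeR adjusted p of 0.107. Without the TRIM21 IgG sample 11, Ndn after IgG had -0.60 and an edgeR adjusted p of 0.0617.

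The treatments themselves were compared within each line, since the series asks what introducing an antibody or a protein does to RNA levels. None of the 8 genes passed in IgG against PBS, IgG against BSA or BSA against PBS, in either line, nor in the 3 tests of whether such a difference depended on the line. The percentage of all genes called was 0 in each of these 9 comparisons, by edgeR's quasi-likelihood test and by DESeq2's Wald test alike for the 8 genes. At an unadjusted p under 0.05 there were 681, 45 and 447 of all genes in the 3 comparisons of the TRIM21 line, 325, 713 and 302 in the WT line, and 221, 482 and 790 in the tests of dependence on the line. Of the 8 genes, Igf2r and Grb10 were among the 713, with 0.29 and 0.22 on the log2 scale for IgG against BSA in the WT line. Igf2r had 274, 268 and 297 CPM after BSA and 355, 323 and 347 CPM after IgG in that line. Both had an edgeR adjusted p of 0.741.

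H19 in the TRIM21 line differed by 0.36 between IgG and PBS (95% interval -0.53 to 1.24). Igf2 there differed by 0.10 (95% interval -0.71 to 0.90) and Ndn by 0.09 (95% interval -0.16 to 0.34). These intervals leave differences of more than 1.5-fold possible for H19 and Igf2 but not for Ndn. The largest dependence on line among the 8 genes was that of Peg3 for BSA against PBS, 1.00 on the log2 scale (95% interval -0.21 to 2.22; adjusted p = 0.651 by edgeR with Benjamini-Hochberg adjustment).

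Several genes varied with the sample number in both lines. Igf2 averaged 106, 158 and 236 CPM in samples 10, 11 and 14 of the TRIM21 line and 216, 300 and 449 CPM in those of the WT line. Number 14 was thus 2.23-fold above number 10 in the TRIM21 line and 2.08-fold above it in the WT line, differences as large as that between the lines. Number 10 was the lowest for Igf2 in 6 of 6 groups. H19 was highest in number 14 in 6 of 6 groups, by 2-fold over number 10 in the TRIM21 line and 1.73-fold in the WT line. Peg3 went another way, with number 10 the highest in 6 of 6 groups, and Plagl1 was lowest in number 10 in 6 of 6 groups and highest in number 11 in 5 of 6. These orders were noticed in the data and have no test, and what the samples of a number share is not given in the labels.

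**Figure D4:**
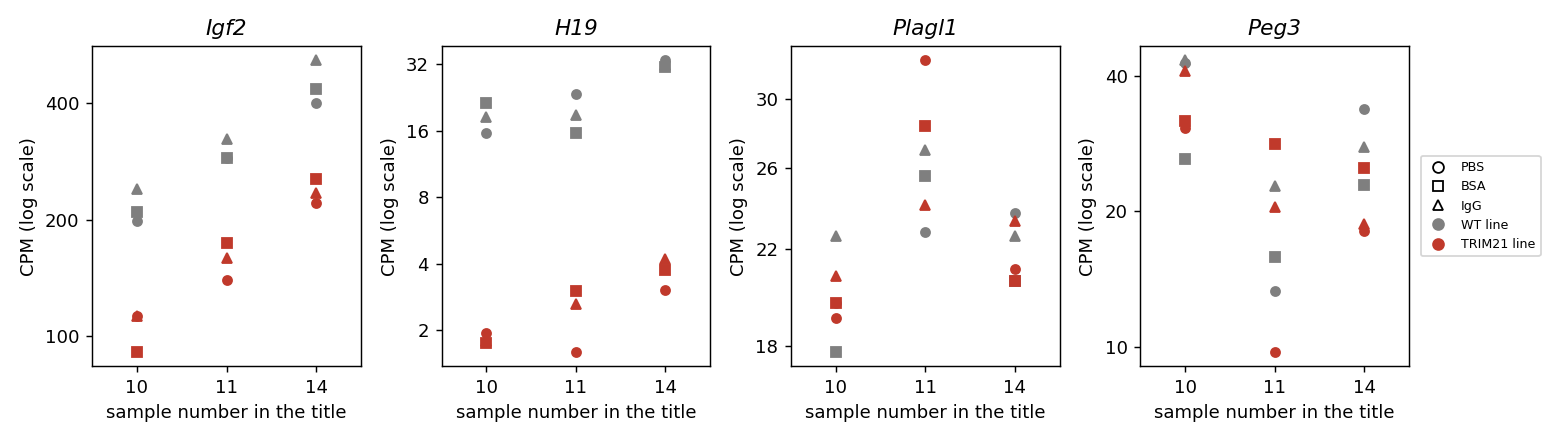
CPM of Igf2, H19, Plagl1 and Peg3 on log axes against the number in the sample title, by line (colour) and treatment (shape); equal values overlie each other. Igf2 is lowest in number 10 and highest in number 14 in both lines, and within each number the lines are apart for Igf2 and H19.

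Within each number, which holds 3 samples of each line, H19 differed by -3.35, -3.00 and -3.14 on the log2 scale in numbers 10, 11 and 14. Igf2 differed by -1.04, -0.94 and -0.93, and Ndn by -0.89, -0.83 and -0.70. All 9 values passed edgeR's quasi-likelihood test with Benjamini-Hochberg adjustment, the largest adjusted p being 0.0216 for Ndn in number 11. Over all genes, 314, 48 and 253 passed within numbers 10, 11 and 14. Each number had its own filter on low counts, and how many genes that filter left is not given here. The 3 genes had been picked for their difference over these same samples, so the values describe its spread over the numbers. Peg3 changed direction between numbers, with -0.12, 0.17 and -0.44.

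H19 and Igf2 depend on the same enhancers, and a methylation-sensitive insulator decides which of them the enhancers of each copy reach. Reads of the pair were set against each other in each sample. There were 1.15 to 1.91 H19 reads for every 100 Igf2 reads in the TRIM21 line (median 1.65, n = 9) and 5.43 to 10.2 in the WT line (median 7.7, n = 9). The ranges did not overlap. This ratio was chosen after the values of both genes had been seen and restates the gap between their line differences, so it is given as a description with no test.

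Genes beside the 10 were then examined, to see whether a difference extended along the chromosome. Within 500 kb of any of the 10 genes, 63 other genes were tested. Of these, 1 was lower, none was higher and the median log2 fold change was near 0, against 6.18% called over all genes. Around H19, 11 neighbours were tested, not counting Igf2, which is one of the 10 genes, passed and starts 88.67 kb away. None of the 11 passed, with values from -0.18 to 0.35. They include Mrpl23 (0.14), whose start lies 45.46 kb from that of H19, Lsp1 (-0.13) and Ctsd (-0.03). Around Ndn, 3 neighbours were tested: the imprinted genes Mkrn3 (-0.02) and Peg12 (0.17), and A230057D06Rik (-0.12). None passed, and the imprinted neighbour Magel2 had 0 counts.

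The neighbour that passed was Usp29, an imprinted gene whose start lies 0.147 kb from that of Peg3 on the other strand. Usp29 had 3 to 7 counts per sample in the TRIM21 line and 5 to 17 in the WT line. No TRIM21 sample reached the minimum count of 10, so Usp29 entered the test only through WT samples, where it is high. Its log2 fold change was -0.98 ± 0.239 (SE; adjusted p = 0.0187 by edgeR with Benjamini-Hochberg adjustment), and this call is given as a description. Peg3 itself differed by -0.15, and whether the pair differed from each other was not tested. Over chromosome 7 as a whole, where H19, Igf2, Ndn, Peg3 and Cdkn1c lie, 15 of 909 tested genes were higher and 36 lower, or 5.61%, with a median of 0.01. The higher genes include Trim21 itself (7.02), and the lower ones H19, Igf2 and Ndn. Without the genes described here, 15 of 905 were higher and 33 lower, or 5.3%. That chromosome was looked at after the values had been seen.

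**Figure D5:**
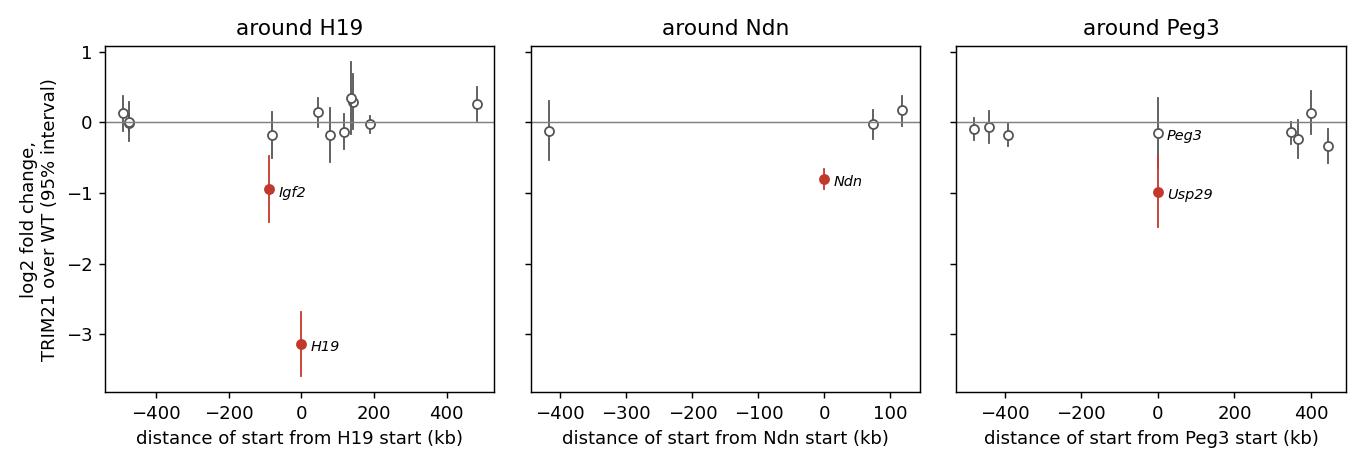
Log2 fold change, TRIM21 over WT, with 95% intervals, of the tested genes within 500 kb of H19, Ndn and Peg3 against the distance between annotated starts along the gene's own direction; filled red symbols passed the test. Apart from the labelled genes, the points lie between -0.33 and 0.35.

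Other imprinted genes served for comparison, and the counts below stand against 4.79% lower and 1.39% higher over all genes tested. In the Dlk1-Dio3 cluster, a paternal and maternal gene cluster on chromosome 12, 6 of 6 tested genes were lower, with a median of -0.85 on the log2 scale, led by the maternal non-coding RNAs Rian (-4.01) and Meg3 (-4.01). Mirg (-0.96), Rtl1 (-0.75), Begain (-0.47) and Dlk1 (-0.41) followed. In the Peg10 cluster 1 of 5 tested genes was lower, Asb4 (-5.51), with a median of -0.15. Asb4 had 1 to 9 counts per sample in the TRIM21 line and 205 to 344 in the WT line. It thus passed the filter on low counts only through WT samples, and the size of its fold rests on TRIM21 counts near the floor. The value of H19, -3.14, lay between those of Rian and Meg3 and those of the other 4 Dlk1-Dio3 genes, a difference that was not tested. Of 29 further imprinted genes tested, 3 were lower and none higher, with a median of -0.02. These were Usp29, Peg13 (-0.87), a non-coding RNA within the Trappc9 gene, and Pde10a (-0.42), which encodes a cyclic nucleotide phosphodiesterase. Of these, Usp29 passed the filter on low counts only through WT samples. Whether each of the 29 is imprinted in these cells was not measured.

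The pathway around Igf2 was followed in a list of IGF ligands, receptors, binding proteins and proteases. Of 16 tested genes, 4 were lower and none was higher, against 4.79% lower over all genes tested, and their median was -0.06. The growth factor Igf1 was at 13 ± 3.06 CPM in the TRIM21 line and 24 ± 5.12 CPM in the WT line (SD, n = 9 each), and it differed by -0.89 on the log2 scale. The proteases Pappa2 (-1.28) and Pappa (-0.51), which free IGFs from binding proteins, and the binding protein Igfbp7 (-0.75) were the other 3. Of 20 tested genes that set or keep DNA methylation imprints, 1 passed, or 5%, which is near the 6.18% of all genes tested. It was the maintenance methyltransferase Dnmt1, which rose by 0.26 on the log2 scale (edgeR adjusted p = 0.0379), with 415 ± 43.3 CPM in the TRIM21 line and 346 ± 32.6 CPM in the WT line (SD, n = 9 each). None of 16 tested genes of the GCN2 stress branch, which the Impact protein restrains, passed, and their median was 0.10.

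The genes whose log2 CPM followed each changed gene most closely over the 18 samples were named by Pearson's r. For H19 they were Cd24a (r = 0.99), Rgs4 (0.98) and Sparcl1 (0.98). For Igf2 they were Anxa6 (r = 0.92), Sec24d (0.92) and Pcdhb9 (0.91), and for Ndn Gas6 (r = 0.97), Zfp422 (0.96) and Myl9 (0.95). The samples share the line difference and the sample numbers, so these correlations are a description. Of the 9 genes, Sec24d (-0.14) and Pcdhb9 (-0.39) did not pass the test between lines.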

How the data were processed

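The authors deposited 1 table per sample, of whole-number counts for each gene symbol without normalization. The submitters' processing notes name bcl2fastq 2.19.1.403, FastQC 0.11.5, STAR 2.5.1b, HTSeq 0.6.0, DESeq2 1.6.3 and build mm10; the annotation and the strand setting of the counting are not given in the sources used here. Libraries were strand-specific and polyA-enriched, per the labels' protocols. Lines for reads with no gene (13.1% to 18.8%) and for ambiguous reads (0.473% to 0.63%) stayed out of library sizes. These are percentages of the gene-counted, no-gene and ambiguous reads together. The line for alignments that were not unique, 14199493 to 22123689 per sample, stayed out as well.

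Counts were fitted with edgeR 4.0.16 in R 4.3.3: filterByExpr (minimum count 10, minimum total 15), TMM factors, 1 mean per group over 18 samples, quasi-likelihood tests, and Benjamini-Hochberg adjustment over 12140 genes at 0.05. The fit was tested on simulated data. Exact permutation tests used log2(CPM + 0.5). Positions and exon lengths came from GENCODE vM21, where 22708 of 24062 symbols matched directly and 913 by an older symbol. Replicates of a group differed by more than sampling noise (chi-square per degree of freedom 11 or more).

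Same-numbered samples were compared by the correlation of their deviations from the group means. Over the 9 line pairs it was -0.0286 to 0.445, with 5 over 0.1, so the numbers were not taken to pair the samples, although 32 of all 45 same-numbered pairs of samples were over 0.1 (-0.323 to 0.578); after BSA all 3 pairs were over 0.1 (0.289 to 0.445), as they were for IgG against BSA in the WT line (0.232 to 0.397). DESeq2 1.42.0 and limma 3.58.1 served as alternatives, with other scalings, filters, a replicate block and left-out samples. The 10 genes and all lists were chosen with earlier results of these data known. Named were all 10 genes, up to 4 genes past the line threshold of each list (all of the Dlk1-Dio3 and Peg10 clusters) and the 3 genes most like each changed gene; genes named as neighbours, overlaps or markers come from those lists.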

Additional observations from a re-analysis of the deposited data

How the results depend on the processing

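Averaged over treatments, H19, Igf2 and Ndn passed under all 29 alternatives, with -3.35 to -3.00, -1.07 to -0.83 and -0.89 to -0.70 on the log2 scale. Other scalings moved the median of all genes to between -0.01 and 0.02. The 0 counts in the treatment and interaction comparisons were 0 in every alternative run.

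The number of all genes called moved more than the number of these 8. For the averaged line difference it was 750, against 1462 with the replicate block and 314, 48 and 253 within numbers 10, 11 and 14, where fewer samples are used, and 517 to 1268 with 1 sample left out (1268 without TRIM21 PBS 14). After PBS it was 208, against 132 with at least 10 counts in every sample, 847 with the block, 433 by DESeq2's Wald test, 44 with only the groups compared and 104 to 1018 with 1 sample left out (122 without TRIM21 PBS 11, 1018 without TRIM21 PBS 14, 104 without WT PBS 14). After BSA it was 103, against 53, 187 and 158 in the first 3 of these and 66 to 138 with 1 left out (66 without TRIM21 BSA 10, 67 without TRIM21 BSA 14 and 67 without WT BSA 14). After IgG it was 94, against 57, 173 and 160, 179 with only the groups compared and 69 to 148 with 1 left out (148 without TRIM21 PBS 11). The cause was not tested.

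Of the 8 genes, the 2 called after PBS became 1 with only the groups compared, where Ndn had an edgeR adjusted p of 0.107; the 2 after IgG ranged from 1 to 2 with 1 sample left out. With the replicate block, Igf2 also passed after PBS (-0.90, edgeR adjusted p = 2.67e-05) and IgG (-1.08, edgeR adjusted p = 3.41e-06), and beyond these and Igf2 after BSA the block changed no other call among the 8 genes. With the block, 2 of 5 tested genes of the Peg10 cluster and 5 of 29 further imprinted genes passed, against 1 and 3 without. In imprint maintenance 3 of 20 passed and among neighbours 2 of 63, against 1 and 1. Over all 12140 genes tested the calls rose from 750 to 1462, so a rise was not particular to these lists.

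Directions reversed in genes that did not pass. Plagl1 was -0.02 within number 10 and -0.04 within number 14, and Peg3 0.17 within number 11. Grb10 after BSA was -0.01 with upper-quartile factors, and Impact after IgG was -0.01 with the replicate block and -0.01 by limma-voom. With 1 sample left out, Plagl1 ran from -0.04 to 0.10 averaged, -0.15 to 0.29 after PBS, -0.08 to 0.24 after BSA and -0.13 to 0.0028 after IgG. Impact ran from -0.02 to 0.08, -0.12 to 0.12 after PBS and -0.13 to 0.07 after IgG, Grb10 from -0.06 to 0.07 after BSA and Peg3 from -0.68 to 0.07 after IgG. Depth limits H19 in the TRIM21 line (32 to 114 counts), Usp29 (3 to 17 counts) and Asb4 in the TRIM21 line (1 to 9 counts).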
